A study of Mus musculus with 18 samples.

Results

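Macrophages that have seen LPS once answer it differently the next time, and the quantity described here is that change in the answer, measured gene by gene. It is the log2 change in RNA after 10 ng/ml LPS in LPS-primed bone marrow-derived macrophages (BMDMs) minus the log2 change after the same dose in naive BMDMs. The 12 samples it needs, of the 18 in the series, were chosen by their labels as the groups without carboplatin. Their 4 groups hold 3 biological replicates each. Unstimulated BMDMs received nothing, and LPS-stimulated (10 ng/ml) BMDMs received a single dose, whose duration of 3 h comes from the scheme of the study and is not in the labels. LPS-primed BMDMs were kept in 100 ng/ml LPS for 24 h. LPS-tolerant BMDMs had the same priming, after which they were moved to fresh medium that held 10 ng/ml LPS for 3 h. The remaining 6 samples are LPS-primed and LPS-tolerant BMDMs that were also given 25 µM carboplatin, a platinum drug, and they are used once, near the end. All groups are BMDMs of C57BL/6 mice grown from marrow in L929-conditioned medium, and the LPS was from Salmonella. The sources used here do not say whether the other groups had a change of medium before harvest, so the second dose and the fresh medium cannot be told apart, and neither can priming and the longer time in culture. Below, a change at the second dose means the change after the dose and the fresh medium together.

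LPS is sensed by CD14 and the TLR4-MD-2 complex, which signals through the adaptor MyD88 to NF-kB and the MAP kinases, and through TRIF to IRF3 and type I interferon. The rapid targets include cytokines, chemokines and the feedback inhibitors that end the signal, and secreted interferon then raises a further layer of genes. In endotoxin tolerance, cells that have met LPS give a reduced cytokine output on re-exposure, while antimicrobial and repair genes can stay high. Macrophages are among the cells in which this memory has been studied most.

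The depth of the 12 samples was 8172462 to 14708099 read pairs on genes (median 9263422). Of all pairs in the files, 42.2% to 46.89% were not assigned to a gene, and 28.36% to 33.1% matched no annotated feature. Of 15103 genes with a count in these samples, 11221 passed the expression filter and were tested. Macrophage markers were abundant in every sample (summed level of 10 markers 155900 to 325100 normalized counts), with Lyz2 the most abundant. Of the 10, Mertk was higher and Cd14 lower in the response difference. Of 12 neutrophil markers, Ly6g, Mpo, Retnlg and Cxcr2 were at 0 in all 12 samples, and the summed level was 14.04 to 16.04 in unstimulated, 42.5 to 127 in LPS-stimulated, 87.1 to 459 in LPS-primed and 147 to 570 in LPS-tolerant samples, nearly all from S100a8. B cell markers summed to 275 to 1611 in unstimulated and 74.4 to 289 in LPS-stimulated samples but to 5.84 to 13.3 in LPS-primed and 9.35 to 11.8 in LPS-tolerant samples, mostly from Ighm, with Pax5 at 0 throughout. Fibroblast markers summed to 6.2 to 83.0, and NK cell, dendritic cell and mast cell or basophil markers to 41.1 at most. Of the T cell markers, Cd3e, Cd3d, Cd3g and Cd8a were at 0, and the sum of 1004 to 3413 came mostly from Il7r. Of the other markers, S100a8, Lck and Dcn were lower in the response difference and Ighm higher. The part of these cells in the results was not tested, and in bulk RNA fewer cells of a type and less RNA per cell cannot be told apart. P-values measure the spread between these samples.

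Fewer genes were called in the response of BMDMs to 10 ng/ml LPS after priming than before it, both among those that rose and among those that fell. In naive cells, 1732 of 11221 genes rose (15.4%) and 1960 fell (17.5%), at an adjusted p under 0.05 and a log2 change over 1 in edgeR's quasi-likelihood test with the replicate number as a block. In primed cells 275 genes rose after the same dose (2.45%) and 262 fell (2.33%). Of the 1732 genes that rose at the first dose, 163 rose at the second, 44 fell and 1525 were not called. Of the 1960 that fell at the first dose, 147 fell at the second, 23 rose and 1790 were not called. The median change of the 1732 genes was 1.82 on the log2 scale at the first dose and 0.32 at the second, and that of the 1960 genes was -1.61 and -0.41. The first and second responses share no sample.

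The difference itself, the second response minus the first, was called for 2418 genes, of which 1125 were higher (10.0%) and 1293 lower (11.5%) at the second dose. Its sign was the same in all 3 sets of same-numbered samples for 2407 of the 2418. The genes were called on these same samples, so this is a description of the calls and not separate support. Among the 1293 lower genes, 1136 had risen at the first dose, and among the 1125 higher genes, 933 had fallen at the first dose. The first response enters the difference with a minus sign and was the wider of the 2, so these opposite signs are largely built in. In mean normalized counts, the second change of the 933 genes was a smaller fall for 517, zero or a rise for 410 and a larger fall for 6. The median difference over all genes was 0.06. With scaling by library size alone it was 0.30, and the split was then 1679 higher and 996 lower, with 1225 and 3061 genes in the first response, 215 and 374 in the second, and 645 and 1490 in the starting level described further on. The 10 most abundant genes took 8.85% to 10.2% of counts in LPS-stimulated, 12.5% to 12.6% in unstimulated and 16.8% to 19.2% in LPS-primed and LPS-tolerant samples. Without the block, 326 genes were called in the second response in place of 537. Its count was 332 without replicate 3 of the LPS-primed group, 322 without replicate 3 of the LPS-tolerant group, 350 without all samples numbered 2 and 200 without all numbered 3. The 1125 genes called higher became 714 and 600 without these numbers.

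**Figure D1:**
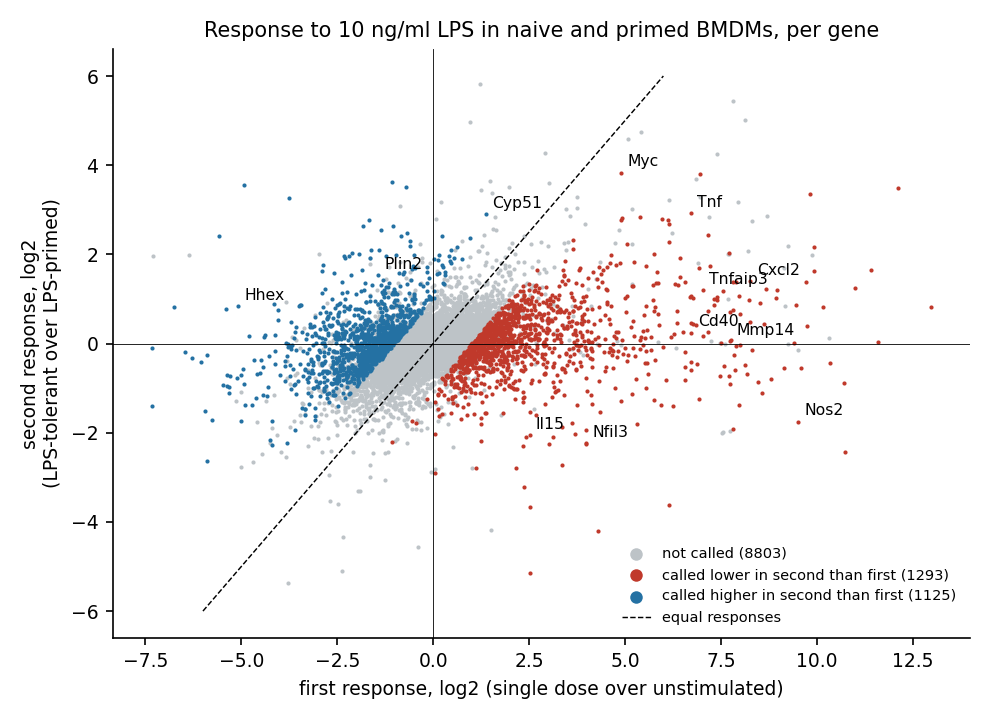
First response (horizontal axis, LPS-stimulated minus unstimulated) against second response (vertical axis, LPS-tolerant minus LPS-primed), both log2 changes, with a point for each of 11221 genes. Genes called lower (1293) or higher (1125) in the difference are coloured, the dashed line marks equal responses, and the cloud is far wider along the first response (SD 1.58) than along the second (SD 0.634).

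Because a log response shrinks when the starting level is already raised, each gene was also compared in its starting level (LPS-primed against unstimulated) and in the level reached (LPS-tolerant against LPS-stimulated). These comparisons share samples with the difference and are given as its parts. The starting level was higher for 856 of all genes (7.63%) and lower for 1057 (9.42%), and the level reached was higher for 1084 (9.66%) and lower for 1337 (11.9%). Of the 1136 genes with a rise at the first dose and a lower difference, 637 ended lower after the second dose than after the single dose, 446 were not called in the level reached and 53 ended higher. The start was already higher after priming for 456 of the 1136, of which 177 ended lower. Of the 660 whose start was not called, 440 ended lower and none ended higher. On the scale of normalized counts, the second gain was larger than the first for 34 of the 1136 genes, smaller for 655, and zero or a loss for 447. All 34 had a higher start, and they include Saa3, Ccl2, Ccl7, Cxcl3 and Thbs1.

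**Figure D2:**
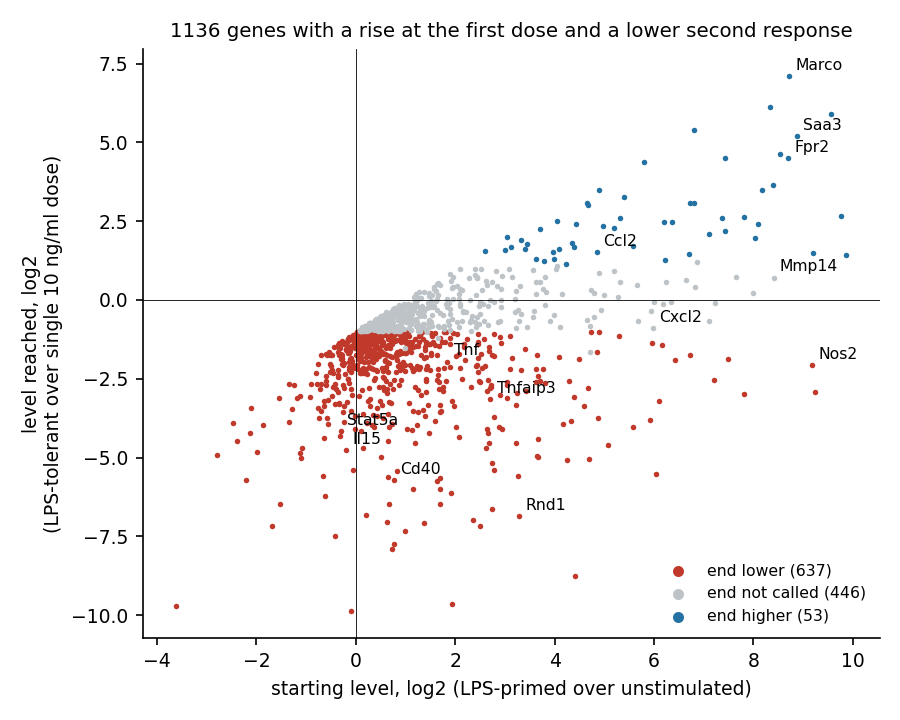
Starting level (horizontal axis, LPS-primed minus unstimulated) against level reached (vertical axis, LPS-tolerant minus LPS-stimulated), both log2, for the 1136 genes that rose at the first dose and had a lower response difference. Genes that ended lower number 637, genes not called in the level reached 446 and genes that ended higher 53, the last of which lie at a raised start.

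Of 29 tested genes of the receptor complex and its adaptors, 8 were lower in the difference (27.6%, against 11.5% over all genes). A further 2 were higher (6.9%, against 10.0%) and 19 not called, and the list's median difference was -0.43. Cd14, the LPS co-receptor, had 3941, 2020 and 3187 normalized counts (counts scaled to a common library size, replicates 1 to 3) in unstimulated and 41640, 29610 and 44500 in LPS-stimulated samples. It had 28700, 7438 and 17550 in LPS-primed and 37180, 11980 and 22250 in LPS-tolerant samples. Replicate 2 was lowest in every group, and the level was higher after the dose than before it in each of the 3 same-numbered sets of naive and of primed cells, although the second response did not pass the test (0.45 ± 0.21, adjusted p = 0.183). The difference was -3.27 ± 0.30 (log2, SE, n = 3 per group, adjusted p = 5.80e-06). Myd88, the common adaptor, rose 3.51-fold in naive cells and had a second response of 0.06 ± 0.12, for a difference of -1.75 ± 0.18. Tlr4 itself was not called in the difference (0.19 ± 0.24, adjusted p = 0.579), with means of 1115 before and 644 after the first dose and 1248 before and 801 after the second. Traf6, Tab2, Ikbkb, Ikbke, Map3k8 and the LPS-deacylating enzyme Aoah were lower in the difference, and Cd180 and Tab1 higher, although no listed gene was called higher without the samples numbered 3.

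NF-kB subunits and feedback inhibitors formed the list with the largest share of lower differences among the 16 described here. The difference was lower for 31 of 38 tested genes (81.6%, against 11.5% over all genes) and higher for none, with a median of -3.08. Tnfaip3 (chr10:18874201-18891405, minus strand) encodes A20, a ubiquitin-editing inhibitor of NF-kB signalling. Its level was 111, 136 and 142 normalized counts in unstimulated and 16480, 19310 and 15270 in LPS-stimulated samples. In LPS-primed samples it was 709, 880 and 951, and in LPS-tolerant samples 1853, 2072 and 1866. All 4 groups were separate, and the gene rose 1.19 ± 0.13 on the log2 scale at the second dose against 7.04 ± 0.16 at the first. Its difference of -5.84 ± 0.19 (adjusted p = 4.38e-09) had nearly the same size in each same-numbered set (-5.83, -5.91 and -5.77). Nfkbia, which encodes the inhibitor IkB-alpha, rose from 514 to 13910 at the first dose and went from 2792 to 3364 at the second, where it was not called (adjusted p = 0.270). Socs3, an inhibitor of cytokine receptor signalling, had a difference of -9.32 ± 0.54, and its mean went from 2472 to 1514 at the second dose (adjusted p = 0.0990). Irak3, which encodes the inhibitory kinase IRAK-M, was the only listed gene to end higher in LPS-tolerant cells, at 2841 against 932. A further 28 ended lower, where 11.9% of all genes did so. Rela, the p65 subunit, had a difference of -0.82 ± 0.19 and passed the p but not the fold limit.

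Of 17 dual-specificity phosphatases, only some of which switch off MAP kinases, 4 were lower in the difference (23.5%, against 11.5% over all genes). A further 3 were higher (17.6%, against 10.0%). Dusp1 rose from a mean of 121 to 3500 in naive cells and went from 1086 to 957 in primed cells, a difference of -4.98 ± 0.33. Dusp6, which acts on ERK, fell from 119 to 24.3 in naive cells and had means of 447 and 889 in primed cells (second response 1.00 ± 0.30), a difference of 3.29 ± 0.49. The list thus split between members, and its median difference was 0.59. Without the samples numbered 3, 1 member was higher.

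Immediate-early factors answered both doses in part. Of 24 tested genes, 7 rose at the second dose (2.45% over all genes) and none fell, and 15 had risen at the first (15.4% over all genes). The difference was lower for 10 (41.7%, against 11.5% over all genes) and higher for 3 (12.5%, against 10.0%), with a median of -0.47. Myc (chr15:61857227-61862223, plus strand), a driver of growth genes, had 78.3, 59.1 and 27.2 normalized counts in unstimulated and 1962, 1507 and 1321 in LPS-stimulated samples. It had 78.8, 27.1 and 28.2 in LPS-primed and 717, 522 and 564 in LPS-tolerant samples, above every sample that had not just received LPS. The first rise was 4.90 ± 0.26 and the second 3.83 ± 0.26, and the difference of -1.07 ± 0.36 had an adjusted p of 0.0357. Junb, a subunit of AP-1, rose 16.5-fold at the first dose and by 0.07 ± 0.13 on the log2 scale at the second. Nr4a1, an orphan nuclear receptor, rose at both doses (1.53 ± 0.41 and 3.37 ± 0.54), and its difference was not called (1.84 ± 0.69, adjusted p = 0.0584). Jun, Atf3 and Klf4 were higher in the difference. Klf4 fell from 211 to 54.8 in naive cells and went from 144 to 248 in primed cells. Without the samples numbered 2, the list held 1 higher call in place of 3.

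Inflammatory cytokines had the lowest median difference of the 16 lists. Of 20 tested genes, 18 rose at the first dose and 5 at the second, where 15.4% and 2.45% of all genes did so. The difference was lower for 14 (70.0%, against 11.5% over all genes) and higher for none. Its median was -5.56 (-4.75 with groups of 3 counts or fewer set to 3). The level reached was lower for 15 of the 20, where 11.9% of all genes were lower. Tnf (chr17:35418357-35420983, minus strand) had 134, 77.6 and 63.7 normalized counts in unstimulated and 15290, 8183 and 6255 in LPS-stimulated samples. It had 298, 365 and 277 in LPS-primed and 2694, 2139 and 2363 in LPS-tolerant samples. Tnf thus rose at the second dose in every same-numbered set, by 2.93 ± 0.23, but to a level below all 3 LPS-stimulated samples. The first rise was 6.73 ± 0.28 and the difference -3.80 ± 0.33 (adjusted p = 2.89e-06).

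Il1b did not rise again. It had 48.9, 46.4 and 60.9 normalized counts in unstimulated and 65530, 50850 and 67900 in LPS-stimulated samples, and 25590, 2520 and 19940 in LPS-primed and 26970, 1517 and 10040 in LPS-tolerant samples. Primed cells started high, replicate 2 lay far below the others in both primed groups, and the second response was -0.45 ± 0.57 (adjusted p = 0.650). Il6 was at 0 in the 3 unstimulated samples and at 1500, 445 and 499.5 in LPS-stimulated samples, so its first rise was at least 295-fold with 3 counts per library as the floor. It had 129, 7.06 and 83.6 in LPS-primed and 462, 12.7 and 67.9 in LPS-tolerant samples, which overlap (second response 0.82 ± 0.59, adjusted p = 0.398). Il10, the anti-inflammatory cytokine of this list, rose at both doses but from means of 31.5 to 4713 at the first and of 10.1 to 34.9 at the second. Il1a, Il1rn and Csf3 were the others that rose at both.

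The level reached by chemokines was higher for 7 of 22 tested genes, lower for 7 and not called for 8. Over all genes it was higher for 9.66% and lower for 11.9%. The difference was lower for 13 (59.1%, against 11.5% over all genes) and higher for none, with a median of -2.63. Of the 13, 9 were not lower in the level reached. Ccl2 (chr11:81926397-81928279, plus strand), which draws monocytes, had 113, 37.1 and 40.3 normalized counts in unstimulated and 12970, 1486 and 2323 in LPS-stimulated samples. It had 3575, 1327 and 714 in LPS-primed and 20270, 5880 and 9387 in LPS-tolerant samples. In each same-numbered set the LPS-tolerant sample was the highest of the 4, and the level reached was higher by 1.51 ± 0.31. The log2 rise was nonetheless 2.77 ± 0.33 at the second dose against 6.11 ± 0.40 at the first, a difference of -3.34 ± 0.47, while the gain in mean normalized counts was 9968 against 5531. Cxcl2, a neutrophil attractant, rose from 41.5 to 12640 and from 2782 to 7402. Ccl5, a T cell attractant, rose from 95.5 to 4100 at the first dose and had means of 8662 and 6431 before and after the second, a second response of -0.44 ± 0.30.

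**Figure D3:**
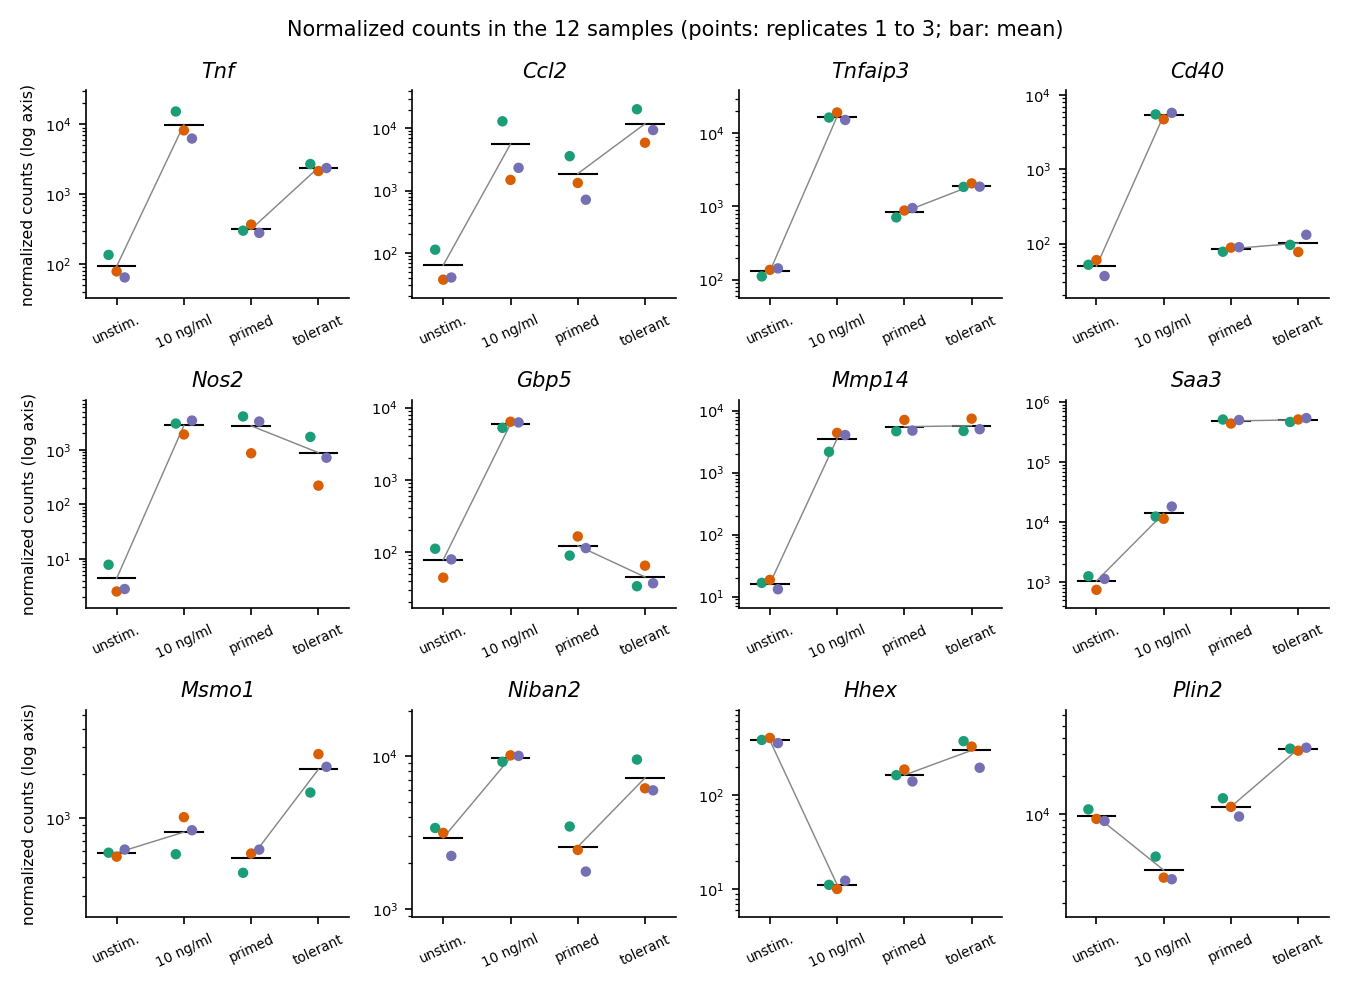
Normalized counts (vertical axis, log scale, a separate scale for each gene) of 12 genes in the 4 groups, with a point for each of 3 replicates and a bar for the mean. Tnf, Ccl2 and Tnfaip3 rose at both doses, Cd40 was called only before priming, Nos2 and Gbp5 rose and then fell, Mmp14 and Saa3 stayed at their primed level, Msmo1 rose mainly at the second dose, Niban2 rose about equally, and Hhex and Plin2 fell at the first dose and not at the second.

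Interferon-stimulated genes had the largest share of falls at the second dose among the 16 lists. Of 73 tested genes, 15 fell (20.5%, against 2.33% over all genes) and none rose. A second response below 0 was seen for 68, against 5610 of 11221 over all genes. At the first dose 22 had risen and 2 had fallen, where 15.4% and 17.5% of all genes did so. The difference was lower for 41 (56.2%, against 11.5% over all genes) and higher for 1 (1.37%, against 10.0%), with a median of -1.32. The level reached was lower for 43 of the 73, where 11.9% of all genes were lower. Without the samples numbered 3 the 41 became 21. Gbp5 (chr3:142199739-142228105, plus strand), an interferon-induced GTPase, had 111, 43.9 and 78.7 normalized counts in unstimulated and 5250, 6388 and 6240 in LPS-stimulated samples. It had 88.7, 164 and 113 in LPS-primed and 33.4, 64.4 and 36.6 in LPS-tolerant samples. Priming for 24 h had left the gene near its unstimulated level, and it was lower after the second dose and fresh medium in every set (-1.41 ± 0.34). Its difference was -7.66 ± 0.46. Isg15, Ifit1 and Rsad2 rose at the first dose and were not called at the second (-1.02 ± 0.41, -0.93 ± 0.47 and -0.40 ± 0.47). Irf8, a lineage factor of macrophages that is also on this list, was the only higher one: it fell from 1116 to 222 in naive cells and had means of 985 and 1121 in primed cells. Near-identical families such as the Gbp, Ifi and Slfn genes can share reads, so values of single members are less certain.

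Antimicrobial and acute-phase effectors had a lower difference for 24 of 36 tested genes (66.7%, against 11.5% over all genes). Yet 7 ended lower and 18 ended higher than in LPS-stimulated cells, where 11.9% and 9.66% of all genes did so. Saa3 (chr7:46361422-46365576, minus strand), an acute-phase protein, had 1266, 752 and 1143 normalized counts in unstimulated and 12470, 11450 and 18330 in LPS-stimulated samples. It had 514500, 441000 and 504900 in LPS-primed and 468100, 515800 and 543800 in LPS-tolerant samples, which overlap. The second response was 0.07 ± 0.16 and the difference -3.67 ± 0.24, while the level reached was higher by 5.20 ± 0.19. Fpr2, a formyl peptide receptor, followed the same course, with means of 9.15 and 163 in naive and 3922 and 3661 in primed cells. Marco, a scavenger receptor, had means of 10.6 and 38.1 in naive and 4617 and 5993 in primed cells, and its difference of -1.62 ± 0.57 (adjusted p = 0.0469) was not called without the block (adjusted p = 0.315), with DESeq2 (0.103), limma-voom (0.0638) or library size alone (0.0877), or without any of 8 of the 12 single samples (0.0525 to 0.167), nor without all samples numbered 2 (0.147) or 3 (0.194). Acod1, which makes itaconate, rose from 162 to 45660 and then went from 20250 to 28640 (second response 0.49 ± 0.25). Nos2, the inducible nitric oxide synthase, had 7.83, 2.53 and 2.81 in unstimulated, 3021, 1906 and 3428 in LPS-stimulated, 4078, 863 and 3290 in LPS-primed and 1720, 220 and 714 in LPS-tolerant samples. It fell in every set at the second dose (-1.75 ± 0.32). The Nos2 difference of -11.26 ± 0.62 was the largest among genes with a mean of at least 50 and no group with all 3 samples at 3 counts or fewer. Its unstimulated values of 2.53 and 2.81 lay near that floor, so the size of its first rise is uncertain. Mefv and Casp4 also fell at the second dose, and Slpi, Clec7a and Nlrp3 rose.

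Costimulatory and surface ligands were lower in the difference for 17 of 24 tested genes (70.8%, against 11.5% over all genes), with a median of -3.58. Cd40 (chr2:164897544-164914868, plus strand), the receptor for T cell help, had 51.9, 59.9 and 36.5 normalized counts in unstimulated and 5494, 4721 and 5766 in LPS-stimulated samples. It had 77.7, 88.3 and 89.5 in LPS-primed and 96.1, 77.1 and 132 in LPS-tolerant samples. The primed groups overlapped (second response 0.24 ± 0.21, adjusted p = 0.487), and the difference was -6.49 ± 0.30. Icam1 and Vcam1, adhesion molecules, had second responses of 0.08 ± 0.16 and -0.59 ± 0.29 after first rises of 4.93 ± 0.19 and 6.72 ± 0.32. Cd86, a ligand of CD28, was an exception in that it rose at both doses, from 17.3 to 399.9 and from 122 to 378, and its level reached was not called. The difference of Cd86 was -2.83 ± 0.51.

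**Figure D4:**
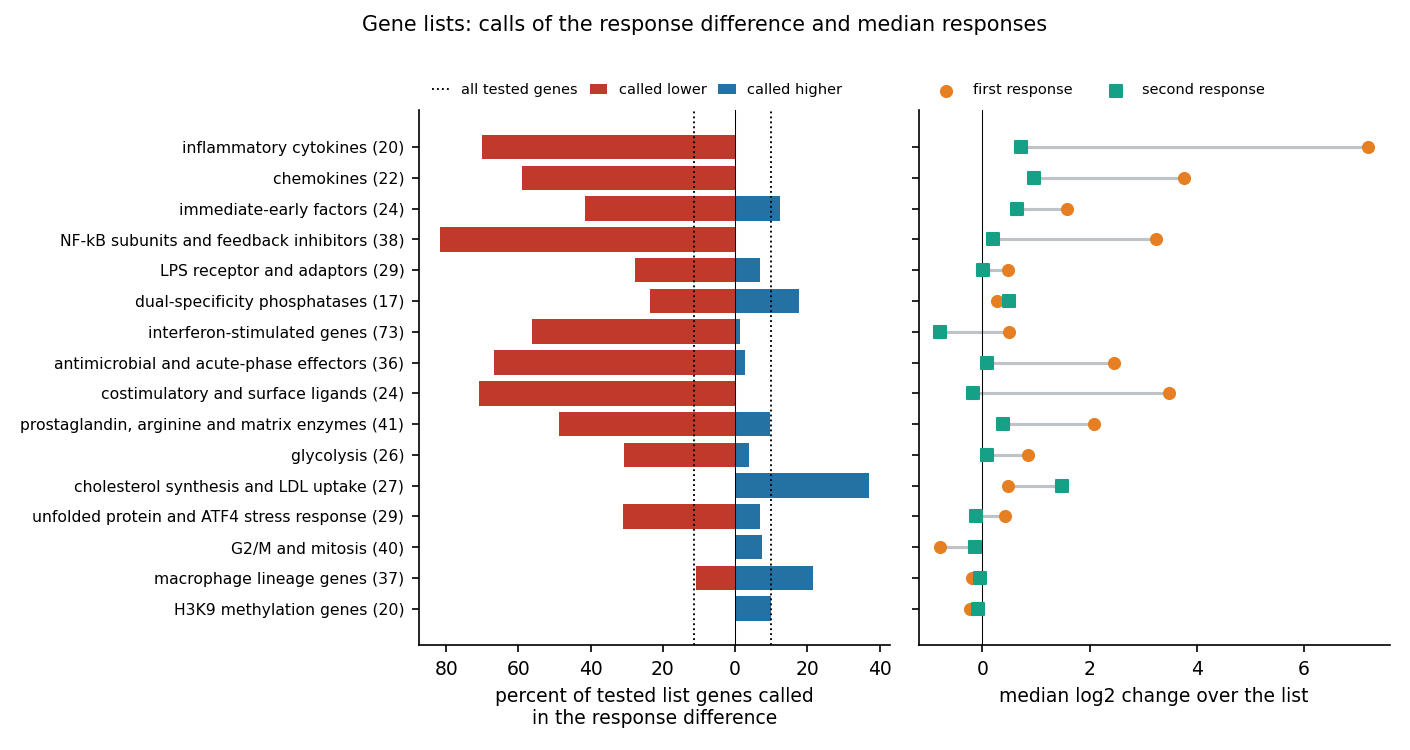
Left, percent of each list's tested genes called lower or higher in the response difference, with dotted lines at the values for all tested genes (11.5% and 10.0%). Right, median log2 change of each list at the first dose (circles) and at the second (squares): cytokines go from 7.20 to 0.73, interferon-stimulated genes from 0.50 to -0.79 and cholesterol genes from 0.47 to 1.49. With groups of 3 counts or fewer set to 3, which is not drawn, cytokines go from 5.48 to 0.45.

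Among 41 prostaglandin, arginine and matrix enzymes, the difference was lower for 20 (48.8%, against 11.5% over all genes) and higher for 4 (9.76%, against 10.0%). Its median was -2.11 (-1.30 with groups of 3 counts or fewer set to 3). None was higher without the samples numbered 3. Ptgs2, the inducible cyclooxygenase, rose from 8.35 to 14540 and had means of 554 and 1345 in primed cells (1.25 ± 0.47, adjusted p = 0.102). Its level reached was -3.82 ± 0.53. Mmp14, a membrane-bound metalloproteinase, had 16.6, 18.6 and 13.1 normalized counts in unstimulated, 2165, 4376 and 4040 in LPS-stimulated, 4648, 7082 and 4757 in LPS-primed and 4694, 7422 and 5009 in LPS-tolerant samples. The primed groups overlapped (0.05 ± 0.16), and the difference was -7.70 ± 0.28. Arg1, arginase, was not called at either dose (1.08 ± 0.53 and 0.38 ± 0.38) but had a mean of 22100 after priming against 34.7 before it. Odc1, Serpinb2, Plau, Plaur and F3 rose at both doses.

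Of 26 tested glycolysis genes, 20 had a higher start and 13 a higher level reached, against 7.63% and 9.66% of all genes. At the first dose 11 rose and at the second none, against 15.4% and 2.45% of all genes. The difference was lower for 8 (30.8%, against 11.5% over all genes) and higher for 1 (3.85%, against 10.0%). The 8 were the glucose and monocarboxylate transporters Slc2a1, Slc2a6, Slc16a1 and Slc16a3, the enzymes Hk2, Pfkl and Pfkfb3, and the regulator Hif1a. Hk2, a hexokinase, rose from 209 to 2504 in naive cells and had means of 928 and 885 in primed cells. Pfkfb3, an activator of glycolysis, rose from 120 to 3321 and then fell from 3128 to 1530 (-1.01 ± 0.26). Pkm, pyruvate kinase, was not called at either dose (0.19 ± 0.14 and 0.11 ± 0.14) with means of 17980 and 51230 before them.

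Of 27 tested cholesterol synthesis and uptake genes, 15 rose at the second dose (55.6%, against 2.45% over all genes) and none fell. At the first dose 9 rose and 2 fell, where 15.4% and 17.5% of all genes did so. The difference was higher for 10 (37.0%, against 10.0% over all genes), lower for none and not called for 17, with a median of 0.90 against 0.06 over all genes. Msmo1 (chr8:65170603-65186830, minus strand), an enzyme of the sterol steps, had 585, 550.3 and 614 normalized counts in unstimulated and 572, 1016 and 829 in LPS-stimulated samples. It had 428, 578 and 614 in LPS-primed and 1489, 2705 and 2221 in LPS-tolerant samples, above all other samples. The second response was 1.97 ± 0.17 against 0.42 ± 0.17 for the first, and the difference was 1.55 ± 0.23 (adjusted p = 0.000281). Lss, which closes the sterol rings, had a difference of 2.01 ± 0.31. Cyp51, lanosterol demethylase, was the only one of the 11221 genes that rose at both doses with a higher difference (1.53 ± 0.41), a call not kept without the block (adjusted p = 0.103), without replicate 2 of the LPS-tolerant group (0.0596) or without the samples numbered 3 (0.0749). Hmgcs1, the synthase at the head of the mevalonate route, rose at both doses (1.18 ± 0.20 and 2.08 ± 0.21), and its difference of 0.90 ± 0.29 (adjusted p = 0.0290) missed the fold limit. The 10 higher genes became 6 without the samples numbered 3 and 17 with library size alone. Fresh medium came with the second dose, so its part cannot be told apart.

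Unfolded protein and ATF4 stress genes had a lower difference for 9 of 29 (31.0%, against 11.5% over all genes). It was higher for 2, Ddit3 and Sesn2 (6.9%, below the 10.0% over all genes). The 9 include the ER chaperones and helpers Hspa5, Hyou1, Pdia6, Creld2 and Manf, and became 5 without the samples numbered 2 and 5 without those numbered 3. Ddit4, an inhibitor of mTORC1, rose from 14.0 to 429 in naive cells and fell from 145 to 62.8 in primed cells.

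Genes that fell at the first dose make up most of the higher differences, which is largely built in because the first response is subtracted. Hhex (chr19:37423258-37429179, plus strand), a homeobox factor of blood cell development, had 383, 402 and 354 normalized counts in unstimulated and 11.2, 10.1 and 12.4 in LPS-stimulated samples. It had 162, 186 and 139 in LPS-primed and 371, 325 and 194 in LPS-tolerant samples, all above the LPS-stimulated ones. The first response was -5.09 ± 0.24, the second 0.85 ± 0.18, which missed the fold limit, and the difference was 5.93 ± 0.31 (adjusted p = 7.65e-08). Tfeb, a regulator of lysosome genes, fell from 633 to 36.6 and had means of 219.7 and 253 in primed cells, a difference of 4.31 ± 0.22. Sesn1, a sestrin, fell from 1647 to 40.2 in naive cells and had means of 279.5 and 179 in primed cells. Of the 933 genes that fell at the first dose with a higher difference, 497 ended higher after the second dose than after the single dose, 407 were not called and 29 ended lower, and their start was lower for 291.

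Of 37 tested macrophage lineage genes, 8 were higher in the difference (21.6%, against 10.0% over all genes) and 4 lower (10.8%, against 11.5%), with a median of 0.13 against 0.06, and the 8 became 5 without the samples numbered 2 and 4 without those numbered 3. Cebpa, a myeloid lineage factor, fell from 854 to 223 at the first dose and went from 201 to 297 at the second. Maf, which maintains macrophage identity, fell from 1252 to 224 and went from 740.2 to 835. Mertk, a receptor for apoptotic cells, was an exception: it fell at both doses (-3.08 ± 0.23 and -1.63 ± 0.22), a difference of 1.45 ± 0.31. All 40 genes of the G2/M and mitosis list started lower after priming (9.42% over all genes). At the first dose 15 fell (17.5% over all genes), and none was called at the second. Their median difference was 0.73, with 3 higher (Kif20a, Kif23 and Ndc80, 7.5% against 10.0% over all genes) and none lower. The count of higher genes was between 1 and 15 when samples were left out, and Ndc80 was not called in 11 of 25 alternatives. Of 20 H3K9 methylation genes, Jmjd1c and Atf7ip were higher in the difference, the same share as over all tested genes (10.0%), and the rest were not called. Suv39h1, Ehmt1 and Cbx5, which encode H3K9 methyltransferases and HP1-alpha, had differences of 0.18 ± 0.42, 0.12 ± 0.20 and 0.40 ± 0.41, and Setdb2 and Kdm4d were below the expression filter.

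The calls at both doses sort the genes into further groups. A rise at both doses was seen for 163 genes, of which the difference was lower for 90, not called for 72 and higher for 1. Without the samples numbered 3 the 163 became 87. The 90 include 4 cytokines, 6 chemokines and 4 immediate-early factors of the lists, and the 72 include 6 cholesterol genes, 3 immediate-early factors and the cytoskeletal and translation genes Actg1 and Eif4a1. Niban2, a gene of the 72 named for its abundance, had 3392, 3148 and 2223 normalized counts in unstimulated and 9227, 10170 and 10090 in LPS-stimulated samples, and 3469, 2434 and 1755 in LPS-primed and 9542, 6177 and 5990 in LPS-tolerant samples. Its difference was -0.27 ± 0.25 (adjusted p = 0.436). Zfp36l1, which speeds decay of mRNAs, was the only gene to fall at both doses with a lower difference (-1.13 ± 0.38), and the call was lost without the block (adjusted p = 0.143), with library size alone (0.0723) and without any of 7 single samples (0.0512 to 0.0969).

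A rise at the first dose and a fall at the second was seen for 44 genes. Nfil3, a bZIP transcription factor, had 90.0, 63.3 and 130.2 normalized counts in unstimulated, 1843, 1069 and 1549 in LPS-stimulated, 1348, 777 and 1365 in LPS-primed and 271, 182 and 281 in LPS-tolerant samples. It fell in primed cells (-2.23 ± 0.15), every LPS-tolerant sample lay below every LPS-primed one, and the difference was -6.22 ± 0.21. Pim1, a survival kinase, fell by 1.79 ± 0.20 on the log2 scale after a first rise of 3.63 ± 0.21. Il15, a cytokine for NK and memory T cells, had means of 249 and 1434 in naive and 219 and 52.8 in primed cells. The opposite course, a fall and then a rise, was seen for 23 genes. Plin2 (chr4:86565912-86588459, minus strand), which coats lipid droplets, had 10920, 9187 and 8852 in unstimulated and 4634, 3165 and 3076 in LPS-stimulated samples. It had 13360, 11430 and 9593 in LPS-primed and 32860, 31670 and 33430 in LPS-tolerant samples, the highest of all. Its second response was 1.53 ± 0.13 and its difference 2.96 ± 0.18. Cdt1, a replication licensing factor, fell from 408 to 55.6 and then rose from 172 to 525.

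Promoters of these groups were searched for 7 short motifs, of which only those defined below are described. Windows from 250 bases before to 50 after the annotated start (GENCODE vM39, GRCm39) were available for 10920 of the 11221 genes. The kB motif was read as GGG, any 2 bases and TTTCC, the interferon-stimulated response element (ISRE) as GAAA, any 2 bases and GAAA, AP-1 as TGANTCA and the TATA box as TATAAA, on both strands, where N is any base. Of all 10920 windows, 1.95% held the kB motif, 3.62% the ISRE, 5.45% AP-1 and 7.81% the TATA box. Of the 90 genes that rose at both doses with a lower difference, 7.78% held kB, 16.7% AP-1, 21.1% TATA and 2.22% an ISRE. Of 41 windows of genes that rose and then fell, 24.4% held an ISRE and 4.88% kB, and of 69 windows of genes that fell at the second dose with no first call, 17.4% held an ISRE. In 909 genes that fell at the first dose with a higher difference the shares were 1.32% for kB and 2.2% for the ISRE. No test was made, and a match is a description of letters. The following 120-base stretches directly before the start were picked after the values were seen, to set kB promoters of chemokines that rose at both doses (Cxcl1, Cxcl2) beside those of genes called at the first dose alone (Nfkbia, Ccl5), and to show the ISRE in genes that rose and then fell (Trim30a, Batf2), with the match in capitals.
Cxcl1: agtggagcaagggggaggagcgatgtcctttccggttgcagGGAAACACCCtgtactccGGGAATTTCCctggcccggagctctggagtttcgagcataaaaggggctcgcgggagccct
Cxcl2: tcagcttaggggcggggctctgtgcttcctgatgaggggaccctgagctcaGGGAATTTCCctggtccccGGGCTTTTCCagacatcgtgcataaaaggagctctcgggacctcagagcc
Nfkbia: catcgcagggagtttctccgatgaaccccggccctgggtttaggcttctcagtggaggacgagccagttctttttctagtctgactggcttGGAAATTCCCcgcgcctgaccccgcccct
Ccl5: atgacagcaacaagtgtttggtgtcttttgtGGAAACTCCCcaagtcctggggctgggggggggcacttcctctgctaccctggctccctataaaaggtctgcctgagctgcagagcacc
Trim30a: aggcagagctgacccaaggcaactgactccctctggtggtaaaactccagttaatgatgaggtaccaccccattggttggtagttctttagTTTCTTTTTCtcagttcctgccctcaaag
Batf2: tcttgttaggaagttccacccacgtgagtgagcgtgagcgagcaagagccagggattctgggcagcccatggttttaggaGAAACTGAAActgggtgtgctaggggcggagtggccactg

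The stretches lie at chr5:91038974-91039093 (plus strand) for Cxcl1, chr5:91051610-91051729 (plus strand) for Cxcl2, chr12:55539433-55539552 (minus strand) for Nfkbia, chr11:83421346-83421465 (minus strand) for Ccl5, chr7:104114408-104114527 (minus strand) for Trim30a and chr19:6214315-6214434 (plus strand) for Batf2, and are read 5′ to 3′ on the gene's strand. The kB matches begin 79 and 61 bases before the start in Cxcl1, 69 and 50 in Cxcl2, 29 in Nfkbia and 89 in Ccl5. The ISRE matches begin 29 bases before the start in Trim30a and 40 in Batf2. By the way they were picked, the genes shown with a kB match differed in their second responses: 1.38 ± 0.29 for Cxcl1 and 1.39 ± 0.20 for Cxcl2 against 0.25 ± 0.14 for Nfkbia and -0.44 ± 0.30 for Ccl5. Trim30a, a member of the TRIM family, had a first response of 1.10 ± 0.25 and a second of -1.11 ± 0.25, and Batf2, a bZIP factor, 1.81 ± 0.31 and -1.55 ± 0.34.

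**Figure D5:**
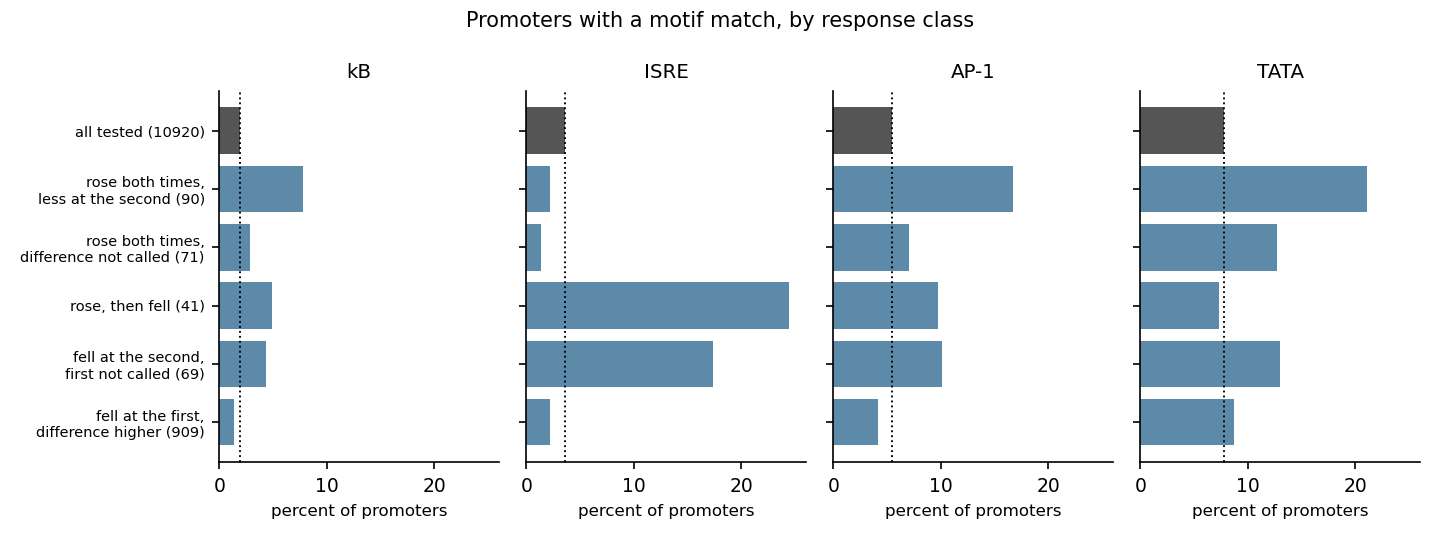
Percent of promoter windows that hold the kB, ISRE, AP-1 or TATA motif (horizontal axes, the same scale in each panel) for all tested genes and groups of genes by their calls at both doses. The ISRE reaches 24.4% in genes that rose and then fell, and AP-1 and TATA reach 16.7% and 21.1% in genes that rose at both doses with a lower difference.

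The second response was measured once more in samples the difference did not use, BMDMs primed in the presence of 25 µM carboplatin. In them 165 of 11305 tested genes rose at the second dose (1.46%) and 137 fell (1.21%). Of the 275 genes that rose without the drug, 273 had the same sign with it and 133 were called higher, with a median of 1.09 against -0.01 over all genes. Of the 262 that fell, 257 had the same sign and 85 were called lower, with a median of -0.93, and no gene of either group was called in the other direction. Tnf rose by 2.66 ± 0.24, Cyp51 by 2.62 ± 0.30, Msmo1 by 1.80 ± 0.175 and Plin2 by 1.27 ± 0.14. Nos2, Nfil3, Pim1 and Il15 fell again, with second responses of -2.01 ± 0.28, -2.42 ± 0.14, -1.42 ± 0.17 and -2.39 ± 0.28. Gbp5 had -1.26 ± 0.43, which did not pass the test (adjusted p = 0.0784). No naive cells with carboplatin were compared, so the difference itself was not measured there.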

How the data were processed

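RNA of 18 mouse BMDM samples was sequenced (TruSeq stranded mRNA, paired-end), and the authors used HISAT2 for alignment to GRCm39 and HTSeq-count for counts per gene. The versions, annotation and strand option are not given in the sources used here. The deposited values are raw counts, not normalized. Rows that name no gene were left out of library sizes.

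The 12 samples without carboplatin were fitted with edgeR 4.0.16 in R 4.3.3 (glmQLFit and glmQLFTest, TMM, filterByExpr with minimum count 10 and total 15), with group and replicate number as terms. The response difference is (LPS-tolerant - LPS-primed) - (LPS-stimulated - unstimulated). P-values were adjusted after Benjamini and Hochberg over all 11221 tested genes, and calls needed an adjusted p under 0.05 and |log2| over 1. The prior count for log2 changes was 0.125. An SE was taken as |log2| over sqrt(F). To normalize, each count was scaled by its library's TMM-adjusted size relative to the mean size. Genes whose 3 samples of a group all held 3 counts or fewer were bounded at 3 counts per library. The precision rests on 3 samples per group and on depth, and a gene of 10 counts has a wide sampling error.

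The samples, the gene lists, the motifs and the named genes were chosen with earlier results of these data known, so no count or median of a list is independent support. Genes named by rule were the 10 largest differences per direction (mean of at least 50, no group at the floor), per list the 3 lowest adjusted p and the most abundant member not called, genes the study names, and leading genes of each class of calls. Other genes named are list or class members chosen after their values were seen. The replicate block is part of the contrast as defined. The alternatives were DESeq2 1.42.0, limma-voom (limma 3.58.1), other scalings, filters, prior count and fold limits, all 18 samples, no block, and samples left out. The fit was tested on simulated data. No library was a copy of another.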

Additional observations from a re-analysis of the deposited data

Results flagged for a closer look

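The response to 10 ng/ml LPS differed between primed and naive BMDMs, by edgeR's test of the difference itself, for 1125 genes in the higher and 1293 in the lower direction. Opposite calls at both doses were found for 44 genes that rose and then fell, among them Nfil3, Pim1, Nos2, Il15 and Gbp5, and for 23 genes that fell and then rose, among them Plin2, Cdt1 and Pparg. With 3 samples per group, no group was large enough for the test of outlying samples.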

How the results depend on the processing

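Among the alternatives run, none turned the sign of the difference of a gene named by rule (133 genes). The other genes named in the text were not followed one by one through the alternatives. The balance of calls did turn: the difference had more higher than lower genes with library size alone (1679 and 996 against 1125 and 1293), the second response had fewer higher than lower genes with library size alone (215 and 374 against 275 and 262), DESeq2 (288 and 295) and all 18 samples (291 and 325), and the first response had more higher than lower genes without the samples numbered 2 (1640 and 1592 against 1732 and 1960) or 3 (1725 and 1601) and past a log2 change of 2 (748 and 603). With at least 10 counts in every sample the starting level had 1238 calls in place of 1913. Library size alone left 304 in place of 499 genes with a lower difference after a first rise and no lower level reached. The second response had 326 calls without the replicate block, 323 of them shared with the 537. Leaving out the block moved no other comparison's total by over 1.5 times and took the call from 4 of the genes named by rule. The second response had 200 to 594 calls when samples were left out, the genes called higher in the difference 600 to 1275, and the genes that rose at both doses 87 to 193. With |log2| over 2, the calls were 966 for the difference (375 higher, 591 lower), 1351 for the first and 100 for the second response, 910 for the level reached and 855 for the starting level, with 33 genes that rose at both doses and 274 with no lower level reached. With no fold limit they were 6760, 1432, 4886 and 3859 for the first response, the second response, the level reached and the starting level, and 580 rose at both doses. After removal of group means, same-numbered samples correlated at 0.310 on average (0.0665 to 0.573) and differently numbered ones at -0.151. With means of 3 samples removed, a positive same-numbered value pushes the differently numbered ones below 0, so the 2 averages are not separate findings. All 12 samples correlated best with their own number, and 17 of 18 same-numbered pairs had a correlation over 0.1. Same-numbered samples thus shared part of their deviations, but the labels do not say what the numbers stand for. With at least 10 counts in every sample fewer genes were tested, and lower differences numbered 7 for cytokines, 8 for chemokines, 9 for costimulatory genes, 14 for antimicrobial effectors and 13 for matrix enzymes. Depth limits the genes under about 10 counts.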
